A study of Homo sapiens with 4 samples.

Results

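The cytosolic ribosomal protein genes encode the protein parts of the ribosomes that translate nuclear mRNAs. Their levels were followed in Huh1 and Huh7, which are established cell lines of human hepatocellular carcinoma (HCC). They were chosen by symbol alone, as the rows named RPL or RPS with a number (including A, L, X and L1 forms) together with RPLP0, RPLP1, RPLP2 and RPSA, and without RPS27L. The rule found 80 genes among 18398 deposited rows, of which 50 belong to the large and 30 to the small subunit. RPL17 and RPL36A were present only under read-through names and were not counted.

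Cells of each line received 15 nM of CDCA8siRNA, the first of the CDCA8 siRNA variants of the study, or of NCsiRNA, which has no endogenous target. Their RNA was sequenced 48 h later, in order to learn which transcripts follow the silencing of CDCA8, a subunit of the chromosomal passenger complex. Each of the 4 conditions, Huh1 with NCsiRNA, Huh1 with CDCA8siRNA, Huh7 with NCsiRNA and Huh7 with CDCA8siRNA, was 1 library, so no spread between replicates of a condition could be measured. A cell line and the culture or library that represents it cannot be told apart. The deposited values were read as RPKM, a unit that states reads relative to transcript length and sequencing depth. The estimated basis was 12197606 to 13384836 reads per library. CDCA8 itself was at 24.1 RPKM in Huh1 with NCsiRNA and 5.86 with CDCA8siRNA, and at 51.5 and 7.36 RPKM in Huh7. The hepatocyte lineage markers ALB, TF and SERPINA1 were present in every library, and the lowest of their values was 159.7 RPKM for SERPINA1 in Huh7 with CDCA8siRNA. AFP stood at 24.8 and 27.5 RPKM in Huh1 against 865 and 715 in Huh7. Of the markers of other cells, PTPRC, CD3E and VWF did not exceed 0.417 RPKM in any library, while CD68 reached 23.3 RPKM in Huh1 and COL1A1 reached 125 RPKM in Huh7.

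Ribosomal proteins are made in matched amounts and assembled on ribosomal RNA in the nucleolus, and their mRNAs are among the most abundant of a growing cell. Vertebrate ribosomal protein mRNAs typically begin with a C followed by a run of pyrimidines, the 5′ terminal oligopyrimidine (5′TOP) motif, through which growth signalling by mTOR controls their translation. Several have paralogues with restricted expression, and many have processed pseudogenes, which are intronless copies that can share reads with their parent gene.

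The start sites of the members that the results turn on are shown from the RefSeq annotation of GRCh38.p14 (the reads themselves were aligned to hg19). Each line holds the 10 bases before the annotated start and the first 20 transcribed bases, 5′ to 3′ on the gene's strand, and the capitals mark the uninterrupted pyrimidine run that begins at the first transcribed base. RPL41 was the most abundant member, RPL10 and RPS16 fell and RPL26L1 rose with CDCA8siRNA, and the others differed most between the cell lines or are the partners of paralogues.
RPL41, chr12:56116623-56116652, plus strand: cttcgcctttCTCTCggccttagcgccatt
RPL10, chrX:154398367-154398396, plus strand: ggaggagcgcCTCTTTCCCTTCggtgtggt
RPS16, chr19:39435930-39435959, minus strand: ccctagctttCCTTTTCCggttgcggcgcc
RPS21, chr20:62387093-62387122, plus strand: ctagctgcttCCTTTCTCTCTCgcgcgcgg
RPS6, chr9:19380217-19380246, minus strand: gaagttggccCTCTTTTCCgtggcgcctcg
RPS29, chr14:49598691-49598720, minus strand: agcgcgcagcTggcagcggtggttgtttct
RPL26, chr17:8383174-8383203, minus strand: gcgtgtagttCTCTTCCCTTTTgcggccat
RPL26L1, chr5:172958719-172958748, plus strand: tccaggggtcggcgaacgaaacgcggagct
RPL10L, chr14:46651762-46651791, minus strand: gtagttaagagagcgcattttgacttcgag
RPL22, chr1:6199576-6199605, minus strand: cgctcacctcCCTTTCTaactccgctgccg
RPL22L1, chr3:170870176-170870205, minus strand: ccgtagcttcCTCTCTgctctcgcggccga

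Of the 80 members, 64 had a start window in the RefSeq table, and 46 of these (71.9%) had at least 1 annotated start with a C followed by 4 pyrimidines. The same was found for 5.14% of all 27305 genes with a window and for 7.20% of the 7667 tested genes that are not members. RPL26L1, RPL10L and RPL7L1 held no such start, whereas RPL22L1 did. RPS29 also held none. The stretch CTTTCC, searched on the transcribed strand from 10 bases before to 20 after the start, was found in 28.1% of the members with a window and in 1.91% of all genes. These matches describe the annotated sequence and not the starts used in these cells. RPL10 has 3 annotated starts and RPL26L1 has 2, and for RPL10 the shown one is the only one with the pyrimidine run.

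The members took 17.1% of the summed RPKM of all rows in Huh1 with NCsiRNA and 16.7% with CDCA8siRNA, and 15.7% and 15.3% in Huh7. Both Huh1 libraries were thus above both Huh7 libraries, and the CDCA8siRNA library was the lower one in each line. Without the 5 most abundant members the shares were 14.2%, 13.9%, 13.2% and 12.9% in the same order. Among the 100 rows of highest RPKM, 54 to 55 were members in every library. A share of 1 library carries no error between cultures.

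Levels between members are compared on the RPKM scale, and their order depends on the transcript lengths that the authors used, which are not given in the sources used here. RPL41, which encodes the smallest ribosomal protein, was at 4138 and 3854 RPKM in Huh1 with NCsiRNA and CDCA8siRNA and at 2591 and 2228 RPKM in Huh7. It was the highest member in 3 of the 4 libraries, and in Huh7 with CDCA8siRNA it came after RPS27 and RPS18. RPS27, a zinc-binding protein of the small subunit, was nearly level over the libraries, at 2508, 2509, 2557 and 2363 RPKM. RPS18, in the head of the small subunit, was at 2155 and 1992 RPKM in Huh1 and at 2459 and 2352 in Huh7. RPS12 of the small subunit was at 2298 and 2246 RPKM in Huh1 and at 1714 and 1682 in Huh7. RPL37A, a zinc-binding protein of the large subunit, had 2353 and 2264 RPKM in Huh1 against 1344 and 1307 in Huh7. These 5 members gave 16.2% to 17.3% of the RPKM of all members in a library.

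Leaving aside the 6 paralogues with an L or L1 suffix, the other 74 members ranged from 82.4 to 4138 RPKM in Huh1 with NCsiRNA, a 50.2-fold range, with a median of 1009. The median was 966 RPKM in Huh1 with CDCA8siRNA and 864 and 802 in Huh7. The large-subunit members had a median of 914 RPKM and the small-subunit members of 1081 in Huh1 with NCsiRNA, and in Huh7 with CDCA8siRNA the medians were 791 and 822. The lowest of the 74 was RPL28, which had 82.4, 81.5, 72.1 and 73.2 RPKM. Its row, like that of each member, names 1 RefSeq transcript. Whether reads of other transcripts of the gene were included is not given in the sources used here. Pearson's r of log2(RPKM + 1) over these 74 genes was 0.996 for the siRNAs in Huh1, 0.992 for the siRNAs in Huh7 and 0.888 for the lines with NCsiRNA. The points are genes rather than replicates, and they share their library and transcript lengths.

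**Figure D1:**
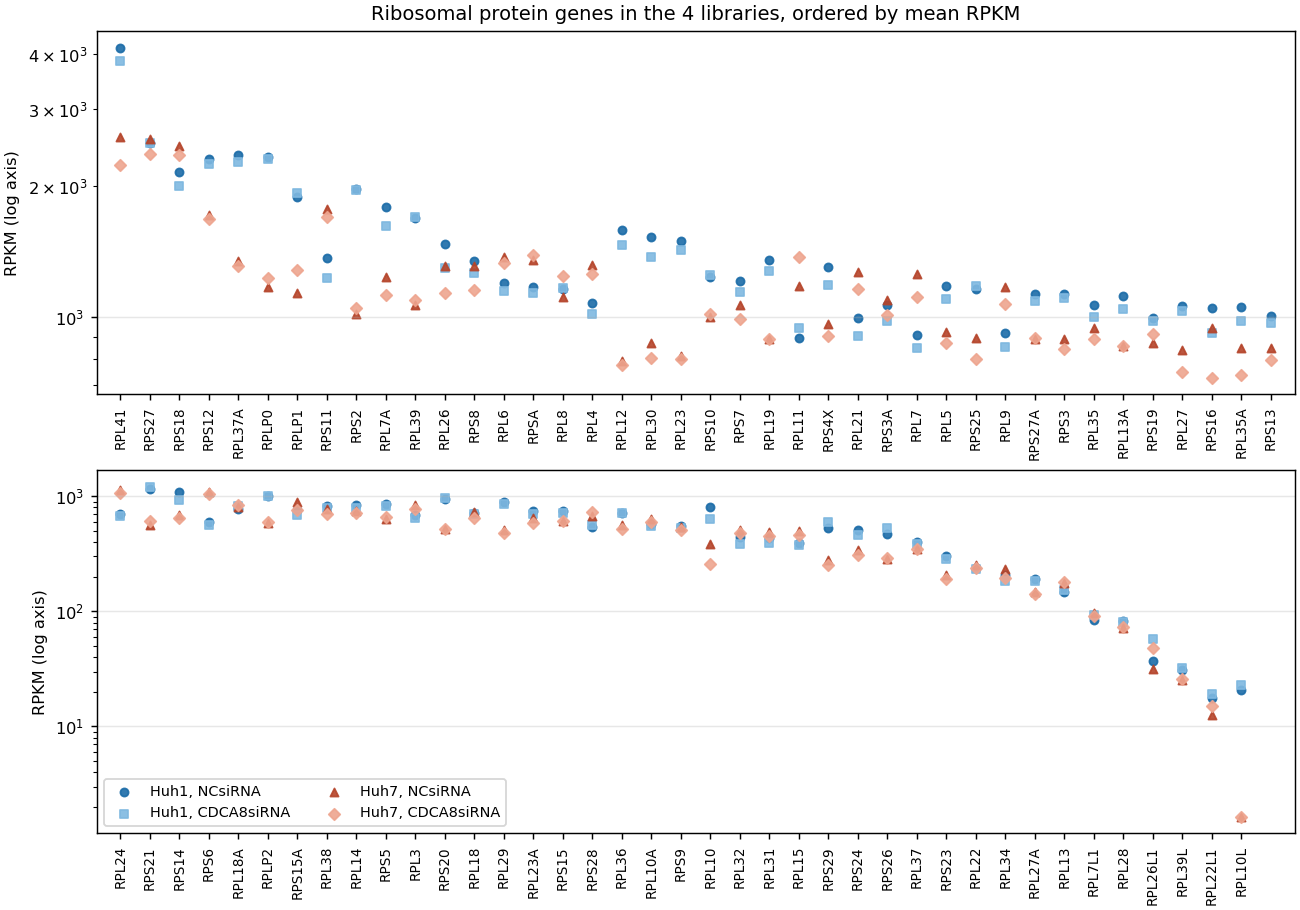
RPKM (log axis) of the 79 members that passed the filter in each of the 4 libraries, ordered by mean RPKM in 2 rows, with 1 point per library and no error bars because each condition was 1 library. RPL41 is at the left end of the upper row, and RPL10L, at 20.7 and 22.8 RPKM in Huh1 and 1.65 and 1.64 in Huh7, is at the right end of the lower one.

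With CDCA8siRNA, RPL10 and RPS16 fell and RPL26L1 rose in both cell lines, and for the other 76 of 79 tested members the change did not pass the test. The limma test was fitted to log2(RPKM + 1) of all 10357 genes with at least 1 RPKM in a library of each cell line, with the cell line as covariate, and RPL3L did not pass this filter. The 3 called members (3.80%, adjusted p under 0.05) stand beside 10.2% of all genes tested. By direction, 1 member rose, beside 6.03% of all genes, and 2 fell, beside 4.21%. An unadjusted p under 0.05 was found for 11 members (13.9%), beside 26.0% of all genes. The test rests on how alike the change was in the 2 cell lines, with 1 residual degree of freedom and a prior estimated over all genes, and not on replicates. With quantile normalization 2 called members rose and 1 fell, and with scaling to the sum of all rows 1 rose and 1 fell. Calls over all genes were not counted under these scalings.

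RPL10, which joins the large subunit late in its maturation and lies near the peptidyl transferase centre, was at 809.8 RPKM in Huh1 with NCsiRNA and 640.0 with CDCA8siRNA. In Huh7 it was at 387 and 261 RPKM. CDCA8siRNA was lower in each line, with a ratio of 0.790 in Huh1 and 0.673 in Huh7. The limma log2 fold change was -0.45 with an SE of 0.08 and an adjusted p of 0.00938. Of the 50-base stretches of its coding sequence, 82.1% also occur in transcripts of other genes, among them the processed pseudogene RPL10P16 with 61.2%. How the authors placed reads that fit several genes is not given in the sources used here.

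RPS16, a protein of the small subunit's head, was at 1052 and 920 RPKM in Huh1 with NCsiRNA and CDCA8siRNA, and at 944 and 727 RPKM in Huh7. The ratio was 0.875 in Huh1 and 0.770 in Huh7. Its limma log2 fold change was -0.28 with an SE of 0.07 and an adjusted p of 0.0348. The call was lost with quantile normalization (adjusted p = 0.135 in limma) and with scaling to the sum of all rows (limma adjusted p = 0.0637), both in the same direction. Only 13.3% of its 50-base coding stretches occur in other genes.

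RPL26L1, a close paralogue of the large-subunit protein RPL26, was at 36.8 and 57.6 RPKM in Huh1 with NCsiRNA and CDCA8siRNA, and at 31.6 and 47.7 in Huh7. Both CDCA8siRNA libraries were above both NCsiRNA libraries, with a ratio of 1.57 in Huh1 and 1.51 in Huh7. The limma log2 fold change was 0.60 with an SE of 0.09 and an adjusted p of 0.00552. RPL26 itself was at 1472 and 1299 RPKM in Huh1 and at 1310 and 1136 in Huh7, and its log2 fold change of -0.19 did not pass the test (limma adjusted p = 0.0787). With RPL26L1 higher and RPL26 lower, RPL26L1 went from 2.44% to 4.25% of the pair's summed RPKM in Huh1 and from 2.36% to 4.03% in Huh7. The transcript named RPL26P30 holds 48.2% of the 50-base coding stretches of RPL26L1.

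None of the members changed 2-fold in either cell line. At that threshold on the log2(RPKM + 1) scale, 0 of 79 members stood beside 0.494% of 10940 genes in Huh1 and 1.57% of 11565 genes in Huh7. The log2 fold changes of the members spanned -0.34 to 0.63 in Huh1 and -0.57 to 0.58 in Huh7. For 77 of 79 members the 95% interval of the limma change lay within 1.5-fold in either direction, as it did for 81.3% of all genes tested. The interval reached between 0.13 and 0.26 to each side of the log2 fold change.

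The members as a group lay slightly below the rest. Their median log2 fold change was -0.06 in Huh1 and -0.08 in Huh7, beside 0.02 and 0.03 for all genes. In Huh1 60 of 79 members (75.9%) were below 0, beside 44.9% of 10940 genes. In Huh7 56 of 79 (70.9%) were below 0, beside 45.5% of 11565 genes. Below 0 in both lines were 50 members (63.3%), beside 30.5% of all genes tested, and this count comes from no test. The members' median minus that of all genes was -0.08 in Huh1 and -0.11 in Huh7 for the deposited scaling and for the 3 other linear scalings tried, whereas quantile normalization brought the members' median to 0 in Huh1 and -0.0079 in Huh7. Over the 74 members outside the paralogues, the SD that read counting alone gives to a log2 fold change in Huh1 had a median of 0.02 and reached 0.09. Hepatocyte markers moved beside it, with a summed level of 5238 RPKM in Huh1 with NCsiRNA and 4022 with CDCA8siRNA, and 3323 and 2335 in Huh7. By limma, which tests both lines jointly, 7 of 10 markers fell, beside 4.21% of all genes tested. None of these markers was at 0, and their part in the shift of the members was not tested. In bulk RNA, fewer cells of a type and less RNA per cell cannot be told apart.

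Pearson's r between the log2 fold changes of Huh1 and Huh7 over the 79 members was 0.768, and 0.605 without RPL26L1, RPL10 and RPL10L. The libraries of the lines are separate, but the genes share transcript lengths and base composition in both. The median limma log2 fold change was -0.06 for the 46 members with a pyrimidine start and -0.06 for the 18 with a window and no such start. It was -0.06 for the large and -0.06 for the small subunit as well. RPL11 and RPL5, which bind 5S ribosomal RNA and can hold MDM2, had log2 fold changes of 0.15 (limma adjusted p = 0.191) and -0.09 (limma adjusted p = 0.399). RPL11 was at 894 and 943 RPKM in Huh1 with NCsiRNA and CDCA8siRNA and at 1180 and 1374 in Huh7, and RPL5 was at 1179 and 1098 and at 923 and 873 RPKM. Thus RPL11 was higher and RPL5 lower with CDCA8siRNA in each line, without passing the test.

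**Figure D2:**
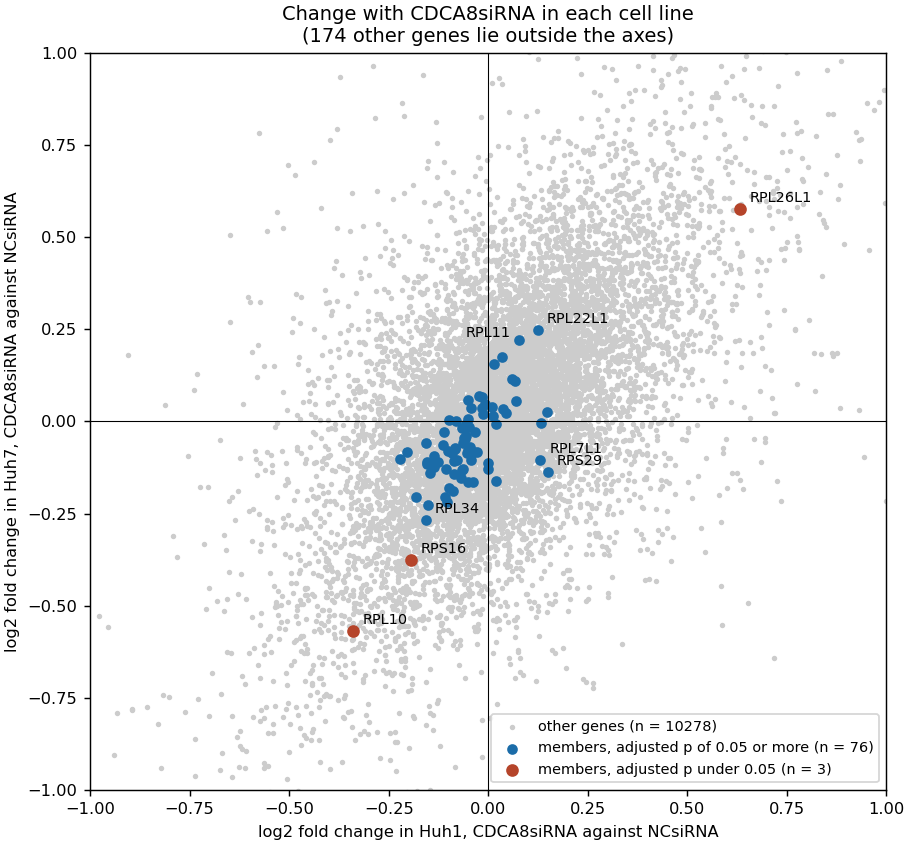
Log2 fold change of CDCA8siRNA against NCsiRNA in Huh1 (x axis) and Huh7 (y axis) for the members (blue, and red for adjusted p under 0.05) and for 10278 other tested genes (grey, of which 174 lie outside the axes). The members form a compact group just below 0 on both axes, and RPL26L1, RPL10 and RPS16 stand away from it.

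The cell lines differed more than the siRNAs did. In the same limma fit, 63 of 79 members (79.7%) differed between Huh7 and Huh1, beside 67.7% of all genes tested. This test rests on how alike the difference was with NCsiRNA and with CDCA8siRNA, and not on replicates. Its p-values therefore do not measure the spread between cultures of a line. Lower in Huh7 were 45 members (57.0%), beside 28.7% of all genes, and 18 members (22.8%) were higher, beside 39.1%. This split changed to 25 higher and 28 lower with quantile normalization and to 23 higher and 36 lower with scaling to the sum of all rows. The shares of all genes given here are from the main fit, and calls over all genes were not counted under these scalings. The difference had the same sign with both siRNAs in 75 of 79 members, and Pearson's r over the members between the difference with NCsiRNA and with CDCA8siRNA was 0.987. Both pairs of libraries compare the same lines, and neither value was computed over all genes.

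The median difference of the members was -0.21 on the log2 scale with NCsiRNA and -0.27 with CDCA8siRNA, beside 0.14 for all genes with either siRNA. Scaling to the sum of all rows raised the median of all genes with NCsiRNA to 0.28 and quantile normalization lowered it to 0.04. The members' median minus that of all genes was -0.35 to -0.36 with NCsiRNA and -0.41 to -0.42 with CDCA8siRNA under the same linear scalings, and -0.04 and -0.10 with quantile normalization. The COL1A1 and AFP levels given above also differed between the lines, and their part in the difference was not tested.

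RPL10L, an intronless copy of RPL10 known for its role in the male germline, had the widest difference of the members. It was at 20.7 and 22.8 RPKM in Huh1 with NCsiRNA and CDCA8siRNA, and at 1.65 and 1.64 in Huh7. The Huh1 libraries were 12.6-fold higher with NCsiRNA and 13.9-fold higher with CDCA8siRNA (limma log2 difference of -3.11 with an SE of 0.12 on the log2(RPKM + 1) scale, adjusted p = 3.34e-08). Its coding sequence shares 0.169% of 50-base stretches with other genes and 5.99% of 25-base stretches with RPL10. RPL10 was 2.09-fold higher in Huh1 with NCsiRNA and 2.46-fold with CDCA8siRNA (limma log2 difference of -1.18 with an SE of 0.08, adjusted p = 1.19e-06). RPL10L therefore made up 2.50% and 3.44% of the pair's RPKM in Huh1 and 0.423% and 0.624% in Huh7.

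The ribosomal stalk recruits elongation factors, and the mRNAs of its proteins were lower in Huh7 throughout. RPLP0, its base, was at 2329 and 2301 RPKM in Huh1 and at 1172 and 1227 in Huh7 (limma log2 difference of -0.95, adjusted p = 9.77e-07). RPLP1 was at 1880 and 1924 RPKM in Huh1 and at 1137 and 1284 in Huh7, and RPLP2 at 1012 and 1001 and at 587 and 602 RPKM (limma log2 differences of -0.65 and -0.76). RPL12, which sits beside RPLP0 at the stalk base, was at 1579 and 1461 RPKM in Huh1 and at 793 and 778 in Huh7 (limma log2 difference of -0.95, adjusted p = 1.27e-06). For each of these 4, both Huh1 libraries were above both Huh7 libraries. With CDCA8siRNA, their log2 fold changes lay between -0.07 and 0.10 and did not pass the test.

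Other large-subunit members lower in Huh7 were RPL23, RPL29 and RPL37A. RPL23, another binder of MDM2, was at 1491 and 1425 RPKM in Huh1 and at 814 and 803 in Huh7. RPL29, a heparin-binding ribosomal protein, was at 886 and 855 RPKM in Huh1 and at 506 and 479 in Huh7. Their limma log2 differences were -0.85 and -0.82, and that of RPL37A was -0.80. In contrast, RPL24, at the interface of the subunits, was at 697 and 675 RPKM in Huh1 and at 1125 and 1072 in Huh7 (limma log2 difference of 0.68, adjusted p = 1.13e-05). RPL11 and RPL5, partners in the 5S particle, differed in opposite directions, by 0.47 and -0.34 on the log2 scale (limma adjusted p = 0.000167 and 0.000907). RPL7 was higher in Huh7 (limma log2 difference of 0.43) and RPL3, near the peptidyl transferase centre, was higher as well (0.27).

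In the small subunit, RPS29 was at 536 and 594 RPKM in Huh1 and at 280 and 254 in Huh7, and RPS21 at 1153 and 1207 and at 561 and 605 RPKM. Their limma log2 differences were -1.08 and -1.02 (adjusted p = 3.37e-06 and 9.00e-07). RPS21 shares 1.5% and RPS29 29.7% of the 50-base coding stretches with other genes. RPS2, near the mRNA entry site, was at 1967 and 1955 RPKM in Huh1 and at 1014 and 1048 in Huh7. RPS20, in the head of the subunit, was at 950.3 and 964 RPKM in Huh1 and at 521 and 518 in Huh7. The limma log2 differences of RPS2 and RPS20 were -0.93 and -0.88.

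RPS6, the main substrate of the S6 kinases, went the other way. It was at 601 and 567 RPKM in Huh1 and at 1100.2 and 1045 in Huh7, which was 1.83-fold higher with NCsiRNA and 1.84-fold higher with CDCA8siRNA (limma log2 difference of 0.88 with an SE of 0.06, adjusted p = 2.32e-06). It was the widest rise among the members. It was also 1 of 18 members, 16 lower and 2 higher in Huh7, that kept their call under every alternative that tested them. Kept calls were not counted over all genes, so this number has no background beside it. RPSA, which also serves as a laminin receptor, was at 1170 and 1136 RPKM in Huh1 and at 1354 and 1388 in Huh7 (limma log2 difference of 0.25, adjusted p = 0.00555). RPS27A, made as a fusion with ubiquitin, was at 1130 and 1090.3 RPKM in Huh1 and at 893 and 896 in Huh7 (limma log2 difference of -0.31). Of the small-subunit members 19 of 30 were lower and 6 higher in Huh7, and of the large-subunit members 26 of 49 were lower and 12 higher.

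**Figure D3:**
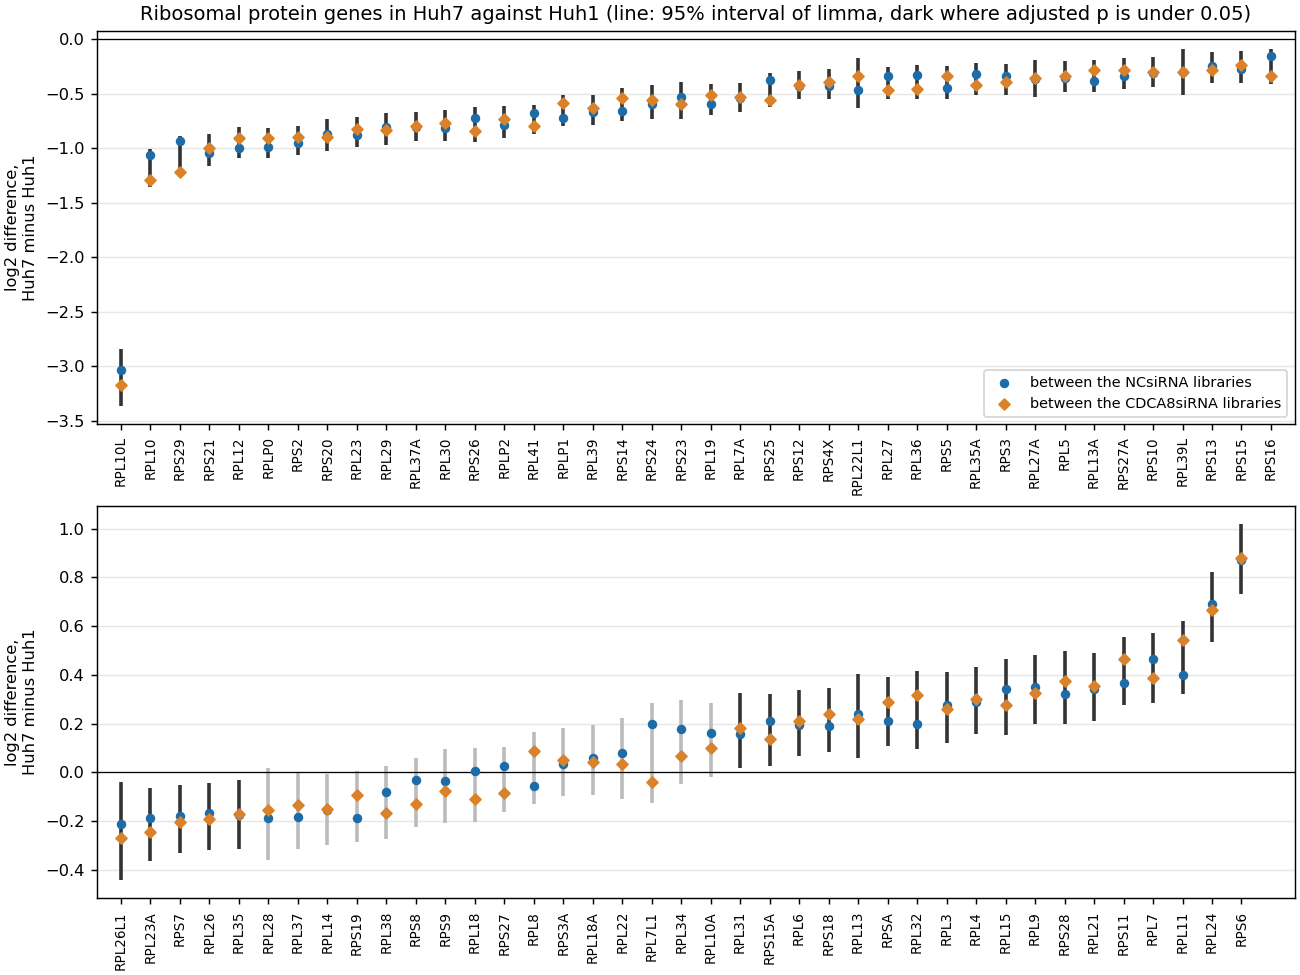
Difference of log2(RPKM + 1) between Huh7 and Huh1 for each of the 79 members, between the NCsiRNA libraries (circles) and between the CDCA8siRNA libraries (diamonds), with the 95% interval of limma over both (dark where the adjusted p is under 0.05). RPL10L is at the left end with -3.04 and -3.17, and RPS6 is at the right end with 0.87 and 0.88.

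Ratios of at least 1.5-fold with both siRNAs were found for 16 of 79 members higher in Huh1, beside 15.5% of all genes tested, and for 2 members higher in Huh7, RPS6 and RPL24, beside 22.7%. These counts come from no test. Since many members have pseudogenes, the limma calls between the cell lines were also counted by shared stretches, a choice made after seeing the data. Of the 80 members, 3 had no 50-base coding stretch in another gene, 6 had all of them in other genes, and the median was 45.2%. Among the 44 tested members with under 50% shared stretches, 27 were called lower and 7 higher in Huh7, and the median limma difference was -0.32, beside -0.18 for the 35 members with 50% or more. Among the 17 tested members with under 10%, 11 were called lower and 1 higher. The calls over all genes tested were 28.7% lower and 39.1% higher. Spearman's rho between the shared percentage and the absolute difference was -0.11 over 79 members.

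The L and L1 paralogues were far below the genes they are named after. RPL3L, a muscle paralogue of RPL3, was at 0.0489 RPKM in Huh1 with NCsiRNA and listed at 0 in the other libraries, while RPL3 was at 690.0, 650.0, 837 and 778 RPKM. RPL39L, known from the male germline, was at 31.2 and 32.0 RPKM in Huh1 and at 25.2 and 25.8 in Huh7, and RPL39 was at 1689 and 1699 and at 1067 and 1096. RPL22L1 was at 17.6 and 19.3 RPKM in Huh1 and at 12.5 and 15.1 in Huh7, beside 238 and 232 and 251 and 237 RPKM of RPL22. Both paralogues were lower in Huh7, by limma log2 differences of -0.30 and -0.40 (adjusted p = 0.0176 and 0.00637). RPL7L1, a nucleolar relative of RPL7, was at 85.0 and 93.2 RPKM in Huh1 and at 97.6 and 90.7 in Huh7, and RPL7 at 910.1 and 849 and at 1258 and 1111. It made up 7.20% to 9.89% of the pair, the highest share among the 6 pairs in every library. RPL26L1 was the 1 paralogue that passed the test with CDCA8siRNA, and RPL3L was not tested. RPL22L1, with a log2 fold change of 0.19, did not pass it (limma adjusted p = 0.291).

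**Figure D4:**
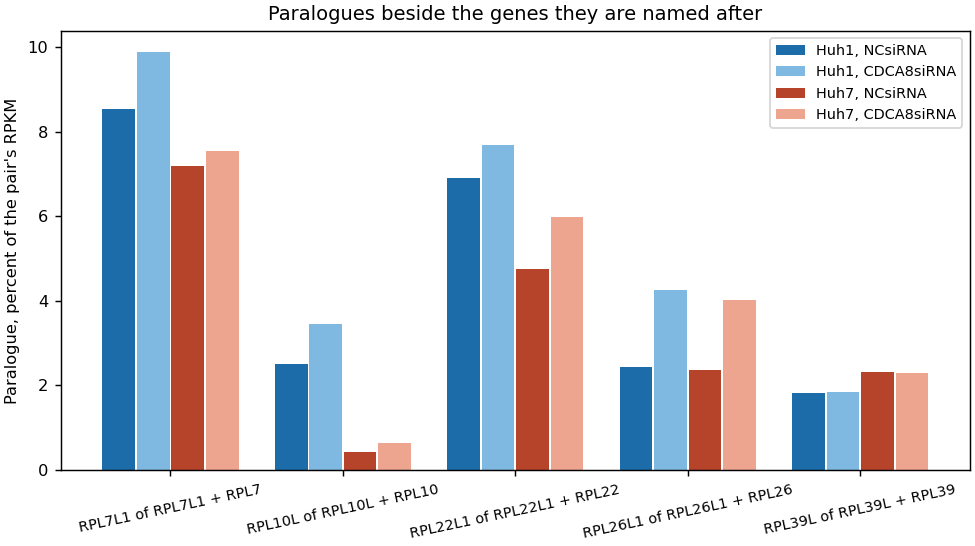
Share of each paralogue in the summed RPKM of the paralogue and the gene it is named after, in percent, with 1 bar per library and no error bars because each condition was 1 library. The RPL26L1 bars are higher with CDCA8siRNA in both lines (4.25% and 4.03%, against 2.44% and 2.36%), and the RPL10L bars are higher in Huh1.

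The ribosomal protein genes FAU, GNB2L1 (RACK1) and RPL36AL lie outside the symbol rule. They did not pass the siRNA test, with limma log2 fold changes of -0.25, -0.08 and -0.04. FAU had an unadjusted p of 0.00786 (limma adjusted p = 0.0644). RPL36AL was at 435 and 403 RPKM in Huh1 and at 221 and 226 in Huh7, a log2 difference of -0.91.

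Genes that act with the ribosome were counted in the same fit, in which 6.03% of all genes tested rose and 4.21% fell with CDCA8siRNA. Of 74 tested ribosome assembly genes 2 rose and 2 fell with CDCA8siRNA, and the median log2 fold changes were -0.04 in Huh1 and -0.05 in Huh7. NOLC1, a nucleolar chaperone, had 85.4 and 144 RPKM in Huh1 with NCsiRNA and CDCA8siRNA and 33.7 and 68.6 in Huh7, and NMD3, the export adaptor of the large subunit, had 38.7 and 49.7 and then 26.3 and 33.7. NPM1, a nucleolar chaperone, fell from 1358 to 972 RPKM and, in Huh7, from 941 to 652, and NOP56, a core protein of box C/D particles, fell from 105 to 78.9 and from 181 to 124. Of 35 initiation factor genes 1 rose, EIF3F, which had 75.1 and 100.8 RPKM in Huh1 and 62.4 and 100.3 in Huh7. None of 11 elongation factor genes was called.

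Of 20 RNA polymerase I genes 1 fell, ZNRD1, which had 15.8 and 13.0 RPKM in Huh1 and 16.3 and 6.14 in Huh7. Of 19 tested genes of growth signalling to translation 2 fell. EIF4EBP1, a repressor of cap-dependent initiation, went from 47.1 to 35.8 RPKM and from 69.9 to 49.4, and MLST8, a subunit of the mTOR complexes, from 28.1 to 22.0 and from 12.2 to 7.85. Of 75 mitochondrial ribosomal protein genes 2 fell, MRPL20 (92.3 to 55.8 RPKM in Huh1 and 98.4 to 42.2 in Huh7) and MRPL16 (31.2 to 25.7 and 38.9 to 26.5). Their median log2 fold changes were -0.01 in Huh1 and -0.08 in Huh7. Between the cell lines, 36 of these 75 were lower and 11 higher in Huh7, beside 28.7% and 39.1% of all genes tested. Their median difference was -0.21, beside -0.25 for the cytosolic members and 0.10 for all genes. Of 74 ribosome assembly genes 34 were lower and 15 higher in Huh7 (median difference of -0.17). Of 11 elongation factor genes 7 were lower and 2 higher (-0.31), and of 35 initiation factor genes 12 and 8 (-0.16). Of 20 RNA polymerase I genes 6 were lower and 5 higher (-0.12), and of 19 growth signalling genes 7 and 6 (0.01).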

How the data were processed

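RNA of the 4 libraries was extracted with Trizol and prepared with a TruSeq RNA kit. Per the submitters' processing notes, CASAVA 1.8.2, TopHat2 2.0.9 and hg19 were used. The authors deposited 1 RPKM value per RefSeq transcript and library, and the transcript lengths, the counter and the handling of reads that fit several genes are not given in the sources used here. The values were taken to be RPKM. In each library, the commonest low value multiplied by transcript length was taken as 1 read. The library's number of reads was estimated from it. Dose and time are from the study's text. The reads behind a value, used only for counting error, were estimated with each gene's shortest protein-coding transcript in GENCODE 29.

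limma 3.58.1 in R 4.3.3 (lmFit, then eBayes with a trend) was fitted to log2(RPKM + 1) of the genes with at least 1 RPKM in a library of each cell line, with the terms cell line and siRNA, with Benjamini-Hochberg adjustment over all of them. The study's own test is not described in enough detail to repeat. Within a cell line or a siRNA, differences between 2 libraries have no test. The difference between the cell lines' responses could not be tested, since no degree of freedom is left. The siRNA term of the fit was tested on simulated data with planted changes larger than those of any member. Changes as small as those of the members, and the cell line term, were not covered by it.

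Shared stretches are 50-base windows of the longest coding sequence that occur in a GENCODE 29 transcript of another gene. Named members are the 5 highest and 5 lowest by mean RPKM, those called with siRNA, the 12 widest calls between cell lines, the 5 with the widest difference between the cell lines' changes, all paralogue pairs and 8 listed genes. From each gene list up to 4 called genes are named. Some genes are not reported here. RPL24 and RPL28 were named after their values were seen. The members and lists were chosen with earlier results of these data known. Alternatives were another pseudocount, no or a higher filter, 4 other scalings and 3 other limma settings. Python 3.11.15 was used for the rest.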

Additional observations from a re-analysis of the deposited data

Results flagged for a closer look

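Of the named members, 11 had log2 fold changes of opposite sign in Huh1 and Huh7 with CDCA8siRNA. Each sign rests on 1 library against 1 library, and the difference was not tested. For 8 of the 11 at least 1 of the changes lay within the 95% interval that read counting alone gives, RPS27 in Huh1 and RPL10L in both lines among them, and for RPS29, RPL7L1 and RPSA both lay beyond it. The change in Huh7 minus that in Huh1 was -0.29 for RPS29, -0.24 for RPL7L1, -0.18 for RPS25, -0.14 for RPL10L, -0.11 for RPS27 and -0.0285 for RPS20. It was 0.0831 for RPLP0, 0.0788 for RPSA, 0.0571 for RPS27A, 0.0553 for RPS2 and 0.0530 for RPLP2. RPS29 had 536 and 594 RPKM in Huh1 with NCsiRNA and CDCA8siRNA, and 280 and 254 in Huh7. RPL7L1 had 85.0 and 93.2 RPKM in Huh1, and 97.6 and 90.7 in Huh7. RPS25, known for its part in internal ribosome entry, had 1163 and 1178 RPKM in Huh1, and 897 and 801 in Huh7. Over all 79 tested members, 16 had opposite signs, a count that was not made over all genes.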

How the results depend on the processing

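The call of 3 members with CDCA8siRNA became 0 without a filter on low values (2 with an unadjusted p under 0.05 in limma), 0 without the cell line covariate (0 unadjusted) and 1, RPL26L1, without the trend. Between the cell lines 63 members became 19 without a filter, a count that was not made over all genes. Of the 44 members with under 50% shared stretches, 34 were called, beside 67.7% of all genes tested in the main fit. With quantile normalization the members' median log2 change was 0 in Huh1 and -0.0079 in Huh7, and the difference between the lines was 0 with NCsiRNA and -0.0556 with CDCA8siRNA. With the same order of siRNAs, that difference was -0.30 and -0.35 with upper quartile scaling, -0.0839 and -0.15 with scaling to the sum of all rows, -0.11 and -0.17 with scaling to the sum of the other rows, and -0.31 and -0.33 in members with under 50% shared stretches. The cause of these changes was not tested. No member changed 2-fold under any of the 7 alternatives of pseudocount, filter or scaling. Of the 63 calls between the cell lines, 18 stayed called under all alternatives that tested them. Of the same 63, 58 kept their sign while 5, all lower in Huh7, did not. Among these 5, RPS12 came to 0 with quantile normalization and did not reverse. Neither the kept calls nor the kept signs were counted over all genes. For the changes of named members with CDCA8siRNA within each line, 476 values under the 7 alternatives were compared with the reported ones. Of these values, 48 moved beyond counting error and 27 changed sign. No replicate could be left out, since each condition was 1 library. No paired analysis was possible because the labels give no replicate numbers to pair beyond the cell line, which the fit already holds as a term.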
